A study of Homo sapiens with 8 samples.

Results

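The AP-1 family of transcription factors was described here by 10 genes, JUN, JUNB, JUND, FOS, FOSB, FOSL1, FOSL2, BATF, BATF3 and MAFF, out of 17958 genes with a probe set of their own. The members were taken from a list of names, and a gene's probe set had to be paired with exactly 1 symbol in the platform annotation. Each of the 10 genes had 1 such probe set, so all were measured and none was lost to a filter.

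Total RNA of 2 human lymphoma cell lines was labelled with biotin and put on 8 whole-transcript arrays, 1 sample per array. KMH2 comes from Hodgkin lymphoma and Ramos from Burkitt lymphoma, and each is a single established line grown in RPMI medium with serum. There were 3 groups: KMH2 cells given glucosamine, an amino sugar, for 24 h (3 arrays), Ramos cells (2 arrays), and untreated KMH2 control cells (3 arrays). No dose is stated in the labels. The sample labels name both Ramos arrays as controls while the series' design text has 1 of them after glucosamine, so Ramos was treated as a cell line with no treatment assigned.

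AP-1 factors bind DNA as pairs held together by a leucine zipper, with a basic region beside it that touches the DNA. JUN proteins pair with each other, with FOS proteins or with relatives such as ATF and BATF proteins, while FOS proteins need a JUN partner. Growth factors and stress raise many of these genes quickly through MAP kinases, and JUN N-terminal kinase in turn activates the JUN protein. In Hodgkin lymphoma, high AP-1 activity with abundant JUN and JUNB is a known feature, JUNB drives the CD30 gene TNFRSF8, and BATF and BATF3 are among the partners of JUN proteins in CD30-positive lymphoma.

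The promoters of 4 members are shown because 3 of these genes rose together after glucosamine and the other fell. Each is the 300 bases from 250 before to 50 after the gene's start in RefSeq's GRCh38.p14 table, read on the gene's own strand. The JUN window is chr1:58783998-58784297 (minus strand), that of JUND chr19:18281573-18281872 (minus strand), that of FOSL2 chr2:28392608-28392907 (plus strand) and that of BATF chr14:75522219-75522518 (plus strand). Capitals mark matches, on either strand, to 3 AP-1 or ATF type motifs: TGANTCA (the TPA response element), TGACGTCA (the cAMP response element) and TGACATCA (the variant known from the JUN promoter).
JUN: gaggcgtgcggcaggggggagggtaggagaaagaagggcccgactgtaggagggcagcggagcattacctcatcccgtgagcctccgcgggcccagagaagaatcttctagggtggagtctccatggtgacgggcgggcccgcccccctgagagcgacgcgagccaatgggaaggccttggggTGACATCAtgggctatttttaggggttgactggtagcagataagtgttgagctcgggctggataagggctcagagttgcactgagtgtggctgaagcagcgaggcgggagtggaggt
JUND: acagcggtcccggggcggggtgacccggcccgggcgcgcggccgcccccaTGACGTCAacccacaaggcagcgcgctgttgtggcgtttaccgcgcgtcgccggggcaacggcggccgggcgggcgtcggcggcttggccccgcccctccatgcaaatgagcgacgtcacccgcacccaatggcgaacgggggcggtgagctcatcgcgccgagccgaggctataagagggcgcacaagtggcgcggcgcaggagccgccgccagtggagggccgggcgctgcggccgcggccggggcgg
FOSL2: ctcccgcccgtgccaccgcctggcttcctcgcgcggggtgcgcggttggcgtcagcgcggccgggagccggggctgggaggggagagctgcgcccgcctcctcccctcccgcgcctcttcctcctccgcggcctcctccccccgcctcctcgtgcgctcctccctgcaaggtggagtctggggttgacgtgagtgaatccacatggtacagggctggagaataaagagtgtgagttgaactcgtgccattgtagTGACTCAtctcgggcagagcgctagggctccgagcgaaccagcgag
BATF: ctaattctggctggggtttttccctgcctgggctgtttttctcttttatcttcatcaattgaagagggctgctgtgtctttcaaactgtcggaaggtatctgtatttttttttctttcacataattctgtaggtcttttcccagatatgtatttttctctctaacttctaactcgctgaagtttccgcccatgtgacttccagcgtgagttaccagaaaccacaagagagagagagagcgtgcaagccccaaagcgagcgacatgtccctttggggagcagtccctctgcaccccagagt

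Counting from the gene's start, JUN held TGACATCA at bases -67 to -60, JUND held TGACGTCA at -200 to -193 and FOSL2 held TGACTCA at 5 to 11. BATF held none of the 3 motifs in this window. The table had 9 promoters for 8 of the 10 members, 2 of them for MAFF, and 4 of the 9 held at least 1 of the 3 motifs, the fourth being MAFF with TGACGTCA at -54 to -47. MAFF did not pass the test after glucosamine. FOSB, which rose, held none of the 3 motifs, and neither did FOS or JUNB, which did not pass. No promoter was given for FOSL1 or BATF3, and a link between motif and direction was not tested. Among all 35116 promoters given by RefSeq, 11.8% held at least 1 of them (TGANTCA 7.71%, TGACGTCA 1.85%, TGACATCA 2.61%). The shorter TGACG, which TGACGTCA contains on both strands, stood in 7 of the 9 member promoters and in 24.6% of all. Neither the serum response motif known as the CArG box (1.29% of all promoters) nor TGATGNAA, a motif of ATF4 with C/EBP proteins (3.62% of all), was found in the 9 windows. These matches describe letters in short windows only.

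The arrays lay on a common scale, with medians between 5.62 and 5.68 on the log2 scale. Replicates of a probe set had a median SD of 0.080 in KMH2 glucosamine, 0.113 in Ramos and 0.067 in KMH2 control. Marker genes went with the labelled lines: all 5 measured B-cell markers and all 5 germinal centre markers were higher in Ramos than in KMH2 control, and all 6 Hodgkin markers were lower. By limma's test (adjusted p below 0.05), 22.7% of all probe sets were higher and 21.2% lower in Ramos. MS4A1, the CD20 gene, averaged 10.94 in Ramos and 3.70 in KMH2 control. The T-cell markers were mixed in KMH2 control, with CD3D at 8.19, CD3G at 7.92 and CD7 at 6.73 above the array medians and CD3E (4.17) and CD2 (4.65) below them. In Ramos CD3D (5.69) and CD3G (5.25) were lower by limma's test, and CD7 (6.71), CD3E (4.32) and CD2 (4.59) did not pass. The whole list is given here, CD3E, CD2 and CD7 having been chosen after their values were seen. Arrays measured RNA of whole cultures, so a change in the share of cells and a change per cell cannot be told apart.

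Glucosamine moved 7 of the 10 members past the test, in different directions, and 5 to 6 when any single array was left out. In KMH2 cells 5 of the 10 genes rose (JUN, JUND, FOSL2, FOSB and FOSL1), 2 fell (BATF3 and BATF) and 3 did not pass the test (JUNB, FOS and MAFF). A gene is said to have risen or fallen where limma's test, adjusted over all 19181 probe sets with 1 symbol, gave an adjusted p below 0.05. That fit did not pair the arrays. With replicates paired as a block FOSL1 did not pass, and 4 members rose in place of 5. Across all those probe sets 11.9% rose and 13.9% fell, 25.8% in all. The glucosamine and control arrays did not overlap for the same 7 genes, a separation seen in 40.9% of all probe sets (20.3% higher and 20.6% lower). The median difference of the 10 members was 0.12 on the log2 scale, against 0.0134 over all probe sets, and their median absolute difference was 0.48, against 0.11.

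**Figure D1:**
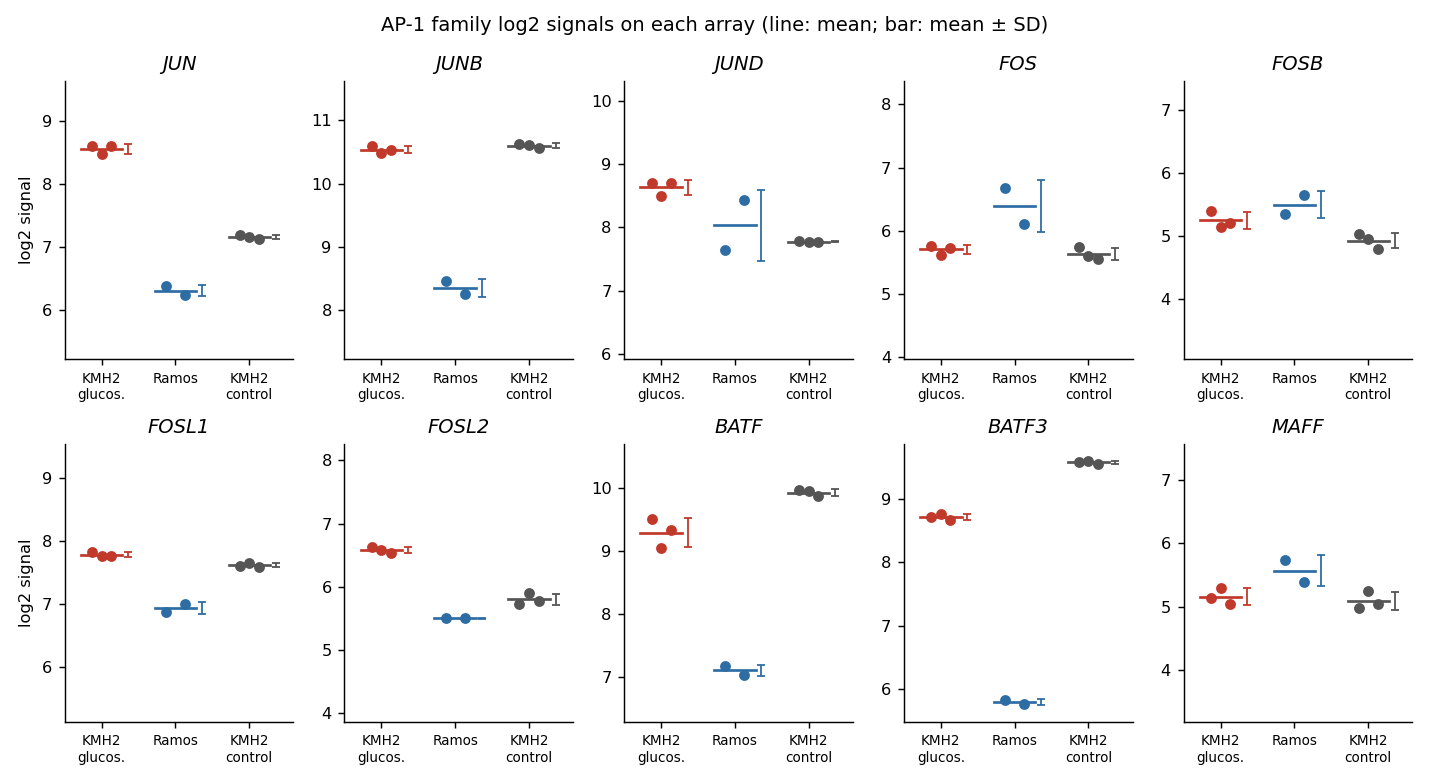
Log2 signal (y axis) of each AP-1 gene on every array, by group (x axis: KMH2 glucosamine, Ramos, KMH2 control). Points are arrays, horizontal lines are group means, capped bars are mean ± SD, and the panels have different y limits of equal length. JUN, JUND and FOSL2 sit higher and BATF and BATF3 lower after glucosamine than in control, and JUNB, BATF and BATF3 are lowest in Ramos.

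Among the JUN genes, JUN itself changed most. JUN (probe set 7916609), the stress-activated founding member, had log2 signals of 8.61, 8.47 and 8.60 in glucosamine-treated KMH2 cells, against 7.19, 7.16 and 7.13 in KMH2 control. Every treated array lay more than 1 log2 unit above every control array. The difference was 1.40 ± 0.06 (SE), a 2.64-fold rise (adjusted p = 9.73e-06), which ranked 20 among the 19181 probe sets ordered from the largest rise down.

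JUND (8035445), known as the JUN protein with the steadiest expression in many cells, had 8.70, 8.49 and 8.71 after glucosamine, against 7.79, 7.77 and 7.77 in control. The control arrays were nearly identical and all treated arrays were higher. JUND rose 1.81-fold (0.86 ± 0.07 on the log2 scale, SE, adjusted p = 0.000131), rank 142 of all rises.

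JUNB (8026047), the member best known from Hodgkin cells, had 10.59, 10.48 and 10.53 after glucosamine, against 10.63, 10.61 and 10.56 in control. The arrays of both groups overlapped. The difference of -0.07 ± 0.05 (SE) did not pass (adjusted p = 0.432), and its 95% confidence interval ran from -0.19 to 0.06 on the log2 scale.

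The FOS genes differed among themselves. FOSL2 (8041048), which encodes FRA2, had 6.63, 6.59 and 6.54 after glucosamine, against 5.73, 5.90 and 5.77 in control, with no overlap. It rose 1.73-fold (0.79 ± 0.06 on the log2 scale, SE, adjusted p = 0.000121), rank 171 of all rises. FOS (7975779), the classical short-lived partner of JUN, had 5.76, 5.62 and 5.73 after glucosamine, against 5.74, 5.60 and 5.56 in control. Its arrays overlapped and its difference of 0.07 ± 0.07 (SE) did not pass (adjusted p = 0.534, 95% confidence interval -0.09 to 0.22). These FOS signals lay near the array medians (5.62 to 5.68), and 24 h was the only time measured, so an earlier change could not be seen.

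FOSB and FOSL1 rose by small amounts, and both calls depended on the fit. FOSB (8029693), an early response gene, had 5.40, 5.14 and 5.21 after glucosamine, against 5.03, 4.95 and 4.80 in control. These dim signals, below the array medians, differed by 0.32 ± 0.08 (SE, adjusted p = 0.0248). The FOSB call was lost without glucosamine replicate 3 (adjusted p = 0.0579), control replicate 2 (0.0674) or control replicate 3 (0.0884) (0.00663 to 0.0921 over all its alternatives). FOSL1 (7949532), which encodes FRA1, had 7.83, 7.77 and 7.76 after glucosamine, against 7.61, 7.66 and 7.59 in control. All treated arrays lay above all control arrays, by 0.17 ± 0.05 on average (SE, adjusted p = 0.0449). FOSL1 lost its call with replicates paired as a block (adjusted p = 0.0561) and without any single array of the 6 (lowest 0.0764, glucosamine replicates 1, 2 and 3 giving 0.0837, 0.0849 and 0.0925, control replicates 1, 2 and 3 giving 0.110, 0.0764 and 0.135), over a range of 0.0265 to 0.135. Without the arrays named here for FOSB, 3 of the 10 members rose in place of 5.

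Both BATF genes among the members fell. BATF2, on the list of partner factors and chosen after its value was seen, did not pass (0.23, adjusted p = 0.14). BATF proteins lack an activation domain of their own and act with JUN proteins and with IRF4 or IRF8 at composite DNA sites in lymphocytes. BATF3 (7924166) had 8.72, 8.76 and 8.67 after glucosamine, against 9.59, 9.61 and 9.56 in KMH2 control. The arrays within each group were within 0.1 of each other and the groups were far apart. BATF3 fell 1.83-fold (-0.87 ± 0.05 on the log2 scale, SE, adjusted p = 3.95e-05), rank 149 among all probe sets ordered from the largest fall. BATF (7975793) had 9.50, 9.04 and 9.32 after glucosamine, against 9.96, 9.94 and 9.86 in control. Treated arrays were all lower but spread more widely (SD 0.23, against 0.057 in control), and the fall was 1.55-fold (-0.63 ± 0.11, SE, adjusted p = 0.00359).

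MAFF (8073007) encodes a small MAF protein that, like BATF, lacks an activation domain and pairs with NRF2 or BACH1 at antioxidant response sites. It had 5.13, 5.30 and 5.04 after glucosamine, against 4.97, 5.25 and 5.04 in control, dim signals that overlapped. The difference was 0.07 ± 0.09 (SE, adjusted p = 0.646, 95% confidence interval -0.14 to 0.29). With array weights the sign turned (-0.01).

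The Hodgkin markers moved in the same direction as BATF and BATF3. All 6 of them fell after glucosamine, by most in GATA3 (-1.04), and their mean log2 signal per array was 8.61 to 8.69 after glucosamine, against 9.12 to 9.20 in control. Of the other marker lists, 1 of 5 B-cell genes (PAX5, -0.37), 2 of 5 germinal centre genes and 1 of 4 myeloid genes (CD14, -1.08) fell, and no T-cell or fibroblast gene passed. Over all probe sets 13.9% fell, and 25.8% passed in either direction. The part of these marker shifts in the AP-1 differences was not tested.

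**Figure D2:**
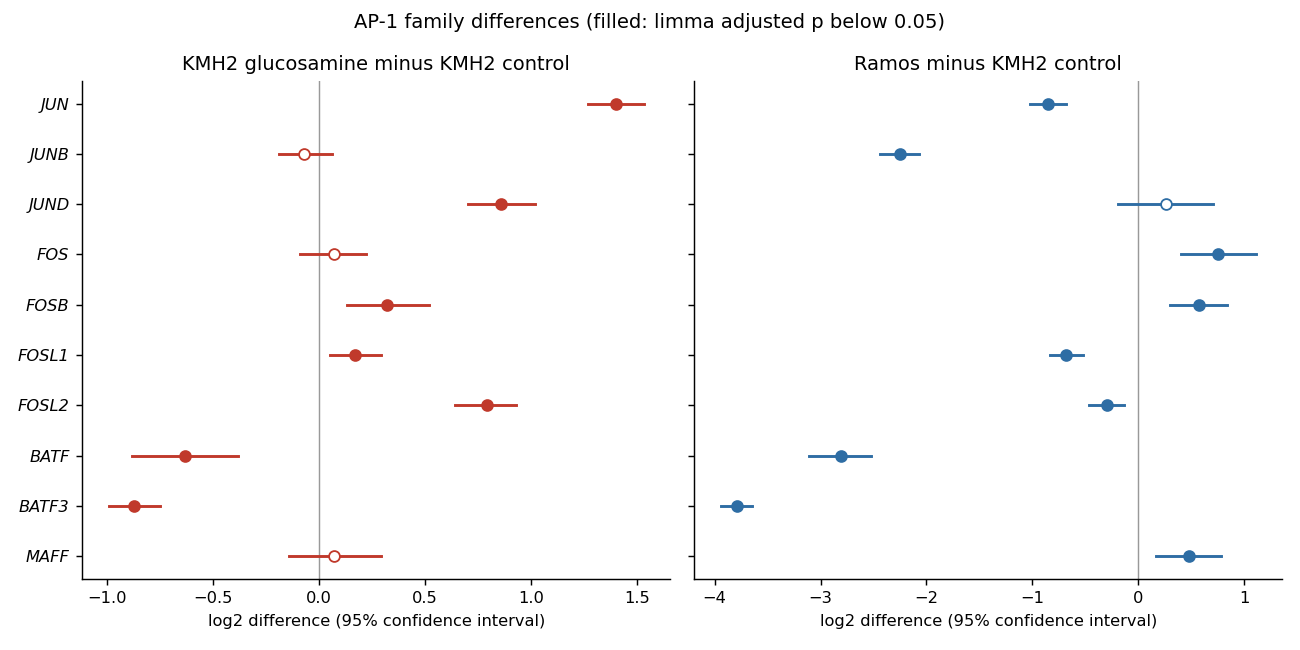
Difference on the log2 scale (x axis, points) with its 95% confidence interval (lines) for each AP-1 gene (rows), for KMH2 glucosamine minus KMH2 control (left) and Ramos minus KMH2 control (right). Filled points passed limma's test at an adjusted p below 0.05. JUN has the largest rise after glucosamine (1.40), and BATF3 the largest difference between the lines (-3.79).

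Genes for related basic leucine zipper factors, which can pair with AP-1 proteins, rose or did not pass. Of 18 measured genes for partner factors 10 rose, none fell and 8 did not pass, with a median difference of 0.49. That is 55.6% of the list, against 25.8% of all probe sets. CEBPB (0.80 ± 0.06, SE, adjusted p = 8.84e-05) and CEBPG (0.79) encode C/EBP proteins that pair with ATF4, and NFE2L1 (0.68), which encodes a relative of NRF2, rose alongside them. DDIT3 had the largest rise of the list (1.82) and ATF4 itself rose by 0.82, both named after their values were seen. ATF3, a stress-induced partner of JUN proteins, rose by 0.44, and JDP2, a repressor that binds JUN, rose by 0.57, both named after their values were seen. ATF2 (0.15, adjusted p = 0.0865) and ATF7 (0.18, adjusted p = 0.0666), partners of JUN at cAMP response elements, did not pass and were also chosen after their values were seen.

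Of 19 measured MAP kinase pathway genes upstream of AP-1 3 rose, 2 fell and 14 did not pass, a share called of 26.3%, close to the 25.8% of all probe sets. MAPK8, which encodes the JUN kinase JNK1, rose by 0.32 ± 0.06 (SE, adjusted p = 0.00737), whereas the p38 kinase genes MAPK12 (-0.60) and MAPK13 (-0.34) fell. The count of rises was 5 with the replicate block and without glucosamine replicate 1, and 1 without glucosamine replicate 2, control replicate 1 or control replicate 2. Of 10 MAP kinase phosphatase genes, whose products switch these kinases off, 4 rose, 2 fell and 4 did not pass. DUSP16, a phosphatase for JNK, rose by 0.79 ± 0.07 (SE, adjusted p = 0.000226), DUSP8 rose by 0.48 and DUSP14 by 0.56. Without control replicate 2 or control replicate 3, 1 phosphatase gene fell in place of 2.

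SRF, the serum response factor, differed by -0.05 (adjusted p = 0.615, chosen after its value was seen). Of the 9 genes for SRF, its cofactors and MEF2 factors 2 rose and 2 fell (44.4%). Over all probe sets 25.8% were called, 11.9% rising and 13.9% falling. ELK4 rose by 0.42, while MEF2C fell by 0.78 and ELK3 fell by 0.43. There was 1 rise in place of 2 without glucosamine replicate 3, control replicate 1 or control replicate 3. Of 18 other immediate early genes 5 rose, 1 fell and 12 did not pass (33.3% called). The largest rises were in KLF10 (1.43 ± 0.06, SE, adjusted p = 9.26e-06), a zinc finger repressor, and PPP1R15A (1.18), which encodes the GADD34 phosphatase subunit, and ZFP36, an RNA-binding protein that destabilises cytokine messages, rose by 0.39. EGR1, which serum and MAP kinases induce together with FOS, was 6.08 after glucosamine and 6.03 in control (adjusted p = 0.524, chosen after its value was seen). The 5 rises became 3 without glucosamine replicate 1, control replicate 2 or control replicate 3. The 1 fall became 0 without control replicate 2, and 2 without control replicate 3 or with the replicate block.

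Among 8 measured genes on turnover of JUN and FOS proteins, DET1, a subunit of the ligase complex that carries COP1 to JUN, fell by 0.76 ± 0.08 (SE, adjusted p = 0.000334). GSK3B, a kinase that marks JUN for degradation, rose by 0.29 and MDM2, a ubiquitin ligase best known for p53, rose by 0.22. The other 5 did not pass (37.5% called). MDM2 lost its call without glucosamine replicate 3 (adjusted p = 0.0975), control replicate 2 (0.101) or control replicate 3 (0.0919), which left 1 rise. Of 10 lymphocyte transcription factor genes on the BATF and IRF list 2 fell, IKZF1 (-0.55, Ikaros) and IRF4 (-0.34, a partner of BATF). PRDM1 stood at -0.19 (adjusted p = 0.144) and none of the 10 rose, so 20.0% were called, against 25.8% of all probe sets. With the replicate block 4 of them fell, PRDM1 among them (adjusted p = 0.0470).

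Of 24 measured genes known as AP-1 targets 2 rose, 4 fell and 18 did not pass, with a median difference of -0.00. The share called was 25.0%, close to the 25.8% of all probe sets. HMOX1, the haem oxygenase gene that NRF2 also drives, rose by 2.32 ± 0.08 (SE, adjusted p = 4.67e-06) and the costimulatory receptor gene TNFRSF9 rose by 0.45. TNFRSF8, the CD30 gene that JUNB is known to drive, had a mean of 8.01 after glucosamine, against 8.74 in control, and fell by 0.73. Leaving out glucosamine replicate 1 gave 4 rises.

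**Figure D3:**
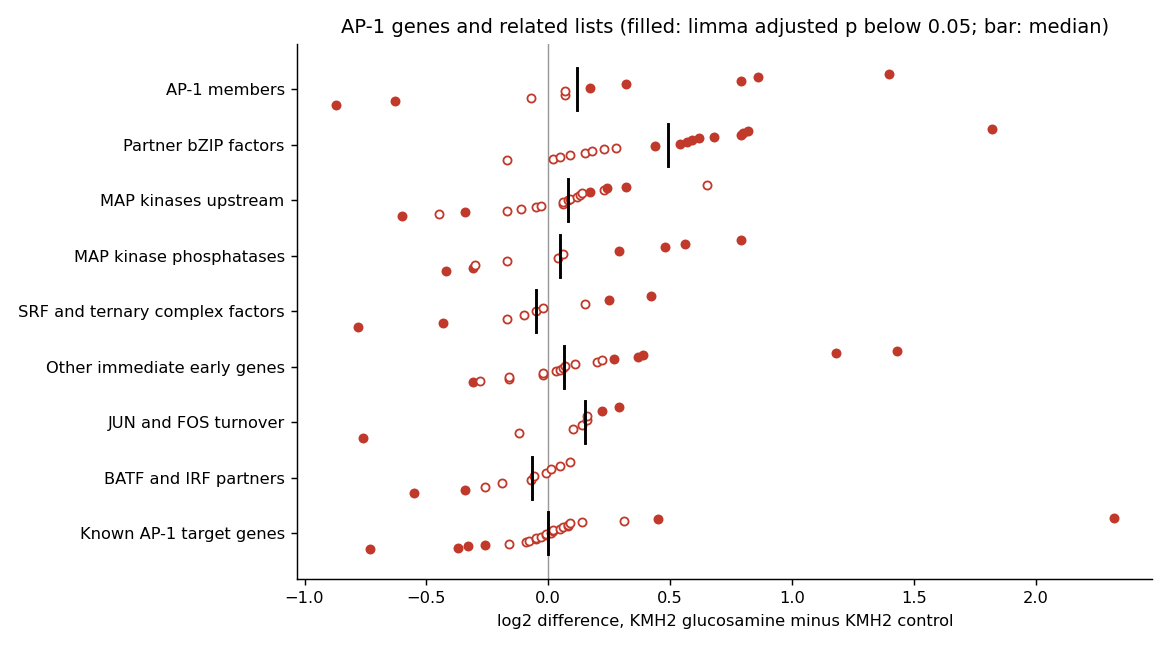
Difference on the log2 scale, KMH2 glucosamine minus KMH2 control (x axis), of every measured gene in the AP-1 family and 8 related lists (rows). Each point is a gene, filled where limma's adjusted p was below 0.05, and the black bar is the list's median. The median is 0.49 for partner factors and 0.12 for the AP-1 members, and the AP-1 members reach from -0.87 to 1.40.

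Ramos cells had far less BATF3, BATF and JUNB signal than KMH2 control cells. Ramos was set against KMH2 control in a fit of all 8 arrays, and the control arrays are the same as those of the glucosamine comparison, so both sets of differences share their error. The fit took the 2 Ramos arrays as replicates of 1 condition, although the design text has 1 of them after glucosamine. In Ramos 3 of the 10 genes were higher (FOS, FOSB and MAFF), 6 were lower (BATF3, BATF, JUNB, JUN, FOSL1 and FOSL2) and JUND did not pass. Over all probe sets 22.7% were higher and 21.2% lower in Ramos, 43.8% in all. The arrays did not overlap for 9 of the 10 members, against 64.1% of all probe sets (37.8% higher and 26.3% lower in Ramos). The median difference of the members was -0.48, against 0.0625 over all probe sets, and their median absolute difference 0.72, against 0.239.

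The 3 largest differences were in BATF3, BATF and JUNB. BATF3 had 5.83 and 5.76 in Ramos, against 9.59, 9.61 and 9.56 in KMH2 control. Ramos was near the array medians and 13.9-fold lower than control (-3.79 ± 0.06 on the log2 scale, SE, adjusted p = 1.68e-09). BATF had 7.17 and 7.04 in Ramos, against 9.96, 9.94 and 9.86 in KMH2 control, a 7.03-fold lower level (-2.81 ± 0.13, SE, adjusted p = 5.22e-07). JUNB had 8.45 and 8.25 in Ramos, against 10.63, 10.61 and 10.56 in KMH2 control, and was 4.77-fold lower (-2.25 ± 0.08, SE, adjusted p = 1.11e-07). Both Ramos arrays were far below every KMH2 array for all 3 genes.

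JUN and the FRA genes were lower in Ramos by less. JUN had 6.38 and 6.25 in Ramos, against 7.19, 7.16 and 7.13 in control, a difference of -0.85 ± 0.07 (SE, adjusted p = 3.02e-05). FOSL1 had 6.88 and 7.01 in Ramos, against 7.61, 7.66 and 7.59 in control, a difference of -0.68 ± 0.07 (SE, adjusted p = 6.90e-05). FOSL2 had 5.51 and 5.50 in Ramos, against 5.73, 5.90 and 5.77 in control, a difference of -0.29 ± 0.07 (SE, adjusted p = 0.0115). With array weights FOSL2 did not pass (adjusted p = 0.112).

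FOS, FOSB and MAFF were the members that were higher in Ramos, FOS with a mean above the array medians there and FOSB and MAFF with means below them. FOS had 6.68 and 6.10 in Ramos, against 5.74, 5.60 and 5.56 in control. Both Ramos arrays were higher than every control array but stood well apart, and the difference was 0.75 ± 0.15 (SE, adjusted p = 0.00435). FOSB had 5.35 and 5.65 in Ramos, against 5.03, 4.95 and 4.80 in control (0.57 ± 0.12, SE, adjusted p = 0.00458). MAFF had 5.74 and 5.39 in Ramos, against 4.97, 5.25 and 5.04 in control (0.48 ± 0.13, SE, adjusted p = 0.0196). The MAFF call was lost without Ramos replicate 1 (adjusted p = 0.0951), control replicate 1 (0.0639) or control replicate 3 (0.0610), over a range of 0.00375 to 0.164.

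JUND separated the Ramos arrays from each other. It had 7.64 and 8.43 in Ramos, 1 array below and 1 above all control arrays (7.79, 7.77 and 7.77), and the mean difference of 0.26 ± 0.20 (SE) did not pass (adjusted p = 0.325). Without Ramos replicate 1 the difference was 0.65 (adjusted p = 0.000554), and without Ramos replicate 2 it was -0.13 (adjusted p = 0.310). The design text has 1 Ramos array after glucosamine, and a part of treatment in this gap was not tested. No statement on the level of JUND in Ramos can rest on these arrays.

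**Figure D4:**
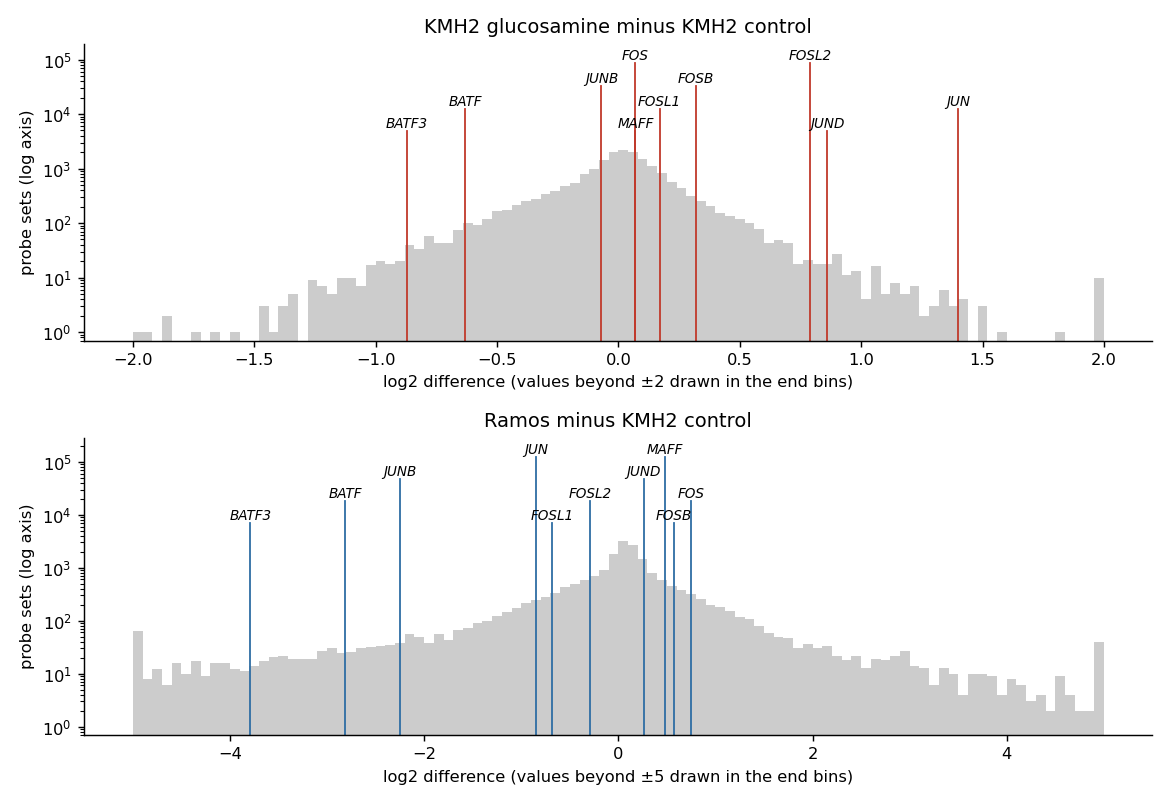
Distribution of log2 differences (x axis) over all 19181 probe sets (grey bars, count on a log y axis), with values past the axis ends drawn in the end bins and the AP-1 genes as labelled lines of arbitrary height, for KMH2 glucosamine minus KMH2 control (upper) and Ramos minus KMH2 control (lower). After glucosamine JUN (1.40) lies far to the right and BATF3 (-0.87) to the left, and in Ramos BATF3 (-3.79), BATF (-2.81) and JUNB (-2.25) lie in the left tail.

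The related lists are given beside the 43.8% of all probe sets that were called in Ramos. Of 18 partner factor genes 8 were higher and 4 lower in Ramos (66.7%), with JDP2 (-2.41) and NFE2L3 (-0.66) giving the smallest p. Of 24 AP-1 target genes 2 were higher and 11 lower (54.2%). The smallest p belonged to TIMP1 (-6.67), an inhibitor of metalloproteinases, and LGALS1 (-4.74), which encodes galectin-1, an immunosuppressive lectin of Hodgkin cells, and CCND2, the cyclin D2 gene (-6.76), had the largest difference of the list, named after its value was seen. Of the 10 genes on the BATF and IRF list 4 were higher and 4 lower (80.0%). The BATF partner IRF4 was 6.09 in Ramos and 11.14 in KMH2 control (-5.05), whereas IRF8 was 10.01 in Ramos and 4.19 in KMH2 control (5.82). Where one side lies below the array medians, as for IRF8 in KMH2 control and TIMP1 (4.79) and MAP2K5 (4.33) in Ramos, the difference is between signals that include background of unknown size, and it may understate the difference in RNA.

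In the MAP kinase list 8 genes were higher and 5 lower of 19 (68.4%), with MAP2K5 at -3.02 and MAPK13 at -2.62. None of the 10 phosphatase genes was higher and 2 were lower by limma (20.0%), DUSP16 (-1.73) and DUSP9 (-0.54); without Ramos replicate 1 the lower genes were 4, and without Ramos replicate 2 the higher ones were 2. In the SRF list 4 were higher and 3 lower of 9 (77.8%), with ELK3 at -2.70 and MEF2C at 2.43. Of 18 other immediate early genes 5 were higher and 4 lower (50.0%), with SGK1, a serum-induced kinase gene, at 2.48 and EGR1 at 2.77, and 3 were higher without control replicate 3. Of 8 turnover genes 4 were higher and 2 lower (75.0%), with USP28 at 1.20 and ITCH at 0.97, and 1 was lower without Ramos replicate 2.

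Across the 3 groups the order of each gene's own levels fell into a few kinds. JUN, FOSL1 and FOSL2 were highest in KMH2 glucosamine, then KMH2 control, then Ramos, and no neighbouring groups overlapped. BATF and BATF3 ran from KMH2 control down through KMH2 glucosamine to Ramos, again with no overlap. Of all probe sets, 40.9% kept glucosamine and control arrays apart and 64.1% kept Ramos and control arrays apart. The share with all neighbouring groups apart was not counted over all probe sets, so these orders have no reference. JUNB was lowest in Ramos, and the KMH2 groups overlapped. FOS and MAFF were highest in Ramos, and the KMH2 groups overlapped. FOSB was highest in Ramos, which overlapped with KMH2 glucosamine, and lowest in KMH2 control. JUND was highest in KMH2 glucosamine, and Ramos overlapped with KMH2 control in the sense that its arrays lay on both sides of it.

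For the 7 members whose signal spanned at least 1 log2 unit over the 8 arrays, the genes with the most similar pattern were found by the mean absolute difference between profiles, each centred on its own mean over the 8 arrays. FERMT2 (0.07) and HRK (0.15) were nearest to JUN. LY6S-AS1 (0.04) and CYB561 (0.06) were nearest to JUNB. TMEM87A and CEBPB (0.08 each) were nearest to JUND, and BIK (0.05) and ABCA6 (0.06) to FOS. FERMT2, for example, had means of 6.53 in KMH2 glucosamine and 5.12 in KMH2 control, with 4.30 in Ramos. For FOSL2 the nearest were YIPF2 and ATG4A (0.09 each), for BATF HEBP2 (0.09) and FJX1 (0.10), and for BATF3 LACTB2 and NRG4 (0.10 each). CEBPB is also on the list of partner factors.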

How the data were processed

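Biotin-labelled RNA of 8 samples went on Affymetrix HuGene-1_1-st-v1 strips, per the labels' protocols. The authors deposited 1 log2 signal per probe set and array. How they summarized and normalized it is not stated there. Of 33297 probe sets 19181 had exactly 1 gene symbol in the platform annotation of 2016 and were tested. They stood for 17958 genes, and each gene was read from its probe set of highest mean. Tests were two-sided moderated tests of limma 3.58.1 (R 4.3.3), adjusted by Benjamini-Hochberg over all tested probe sets, with a threshold of 0.05. Glucosamine was tested on the 6 KMH2 arrays and Ramos against KMH2 control on all 8 arrays in 3 groups. The method was tested on simulated data. The members, the 8 related lists, the 6 marker lists and the tests were chosen with earlier results of these data known.

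Genes named are all members and, in each list, the 3 with the smallest p after glucosamine and the 2 with the smallest p for Ramos. Others are said to be chosen after their values were seen. The design text calls the KMH2 arrays biological replicates. It does not say that of the Ramos arrays, and it has 1 of them after glucosamine. Their spread may be technical or may hold a treatment difference, which was not tested. Deviations from the group means correlated between KMH2 arrays of the same number (0.46, 0.23 and 0.23), each over 0.1, and on that criterion the numbers were taken to pair the arrays. The main tests left this pairing out, and the replicate block took it in as an alternative. Arrays of replicate 1 correlated negatively with those of other numbers (-0.37 to -0.27), but glucosamine 3 with control 2 (0.25) and glucosamine 2 with control 3 (0.18) correlated about as much as the same numbers did, so replicates 2 and 3 were not told apart by this check. Deviations cancel out within a group, so the negative values are partly built in. No 2 arrays were identical (highest correlation 0.9986). The number of arrays limits the precision. Alternatives were a replicate block, all 8 arrays in the fit, quantile normalization, no dim probe sets, all probe sets of the table, array weights, a trended robust prior and leaving out each array.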

Additional observations from a re-analysis of the deposited data

How the results depend on the processing

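After glucosamine JUN, JUND and FOSL2 kept their rise and BATF and BATF3 their fall past the threshold in all 14 alternatives run for each, with JUN between 1.38 and 1.44 on the log2 scale. FOSB and FOSL1 did not. With all 8 arrays sharing the spread, a fit that adds the wider spread of Ramos, 2177 probe sets passed in place of 4956 and 3 members rose in place of 5. In that fit NFE2L1 (adjusted p = 0.058), ELK4 (0.0788), GSK3B (0.284), MDM2 (0.0746), IRF4 (0.0502) and MAPK13 (0.0672) lost their calls. The other genes of the related lists named for their p kept theirs. No gene of the SRF or turnover lists rose there, and no phosphatase gene fell. With every deposited probe set in the adjustment, 3 members rose as well, and the cause was not tested. Leaving out single arrays left 3 to 4 members that rose and 2 that fell, with 3600 to 5304 probe sets called. With the replicate block 5748 probe sets passed, 4 members rose and 2 fell, and apart from FOSL1 no member changed its call. Without both replicate 1 arrays, an alternative chosen after seeing the data, 5472 passed, 4 members rose and 2 fell. The difference of MAFF, which did not pass, turned to -0.01 with array weights.

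For Ramos against KMH2 control JUNB, BATF, BATF3, JUN, FOSL1 and FOS kept their calls in all 12 alternatives, and FOSB in the 11 that tested it. Without dim probe sets FOSB and MAFF were not tested, and 1 member was higher in place of 3. Leaving out single arrays left 2 to 3 members higher and 6 lower. JUND was at 0.65 and past the threshold without Ramos replicate 1, and turned to -0.13 without Ramos replicate 2. With the replicate block, for numbers that no source pairs between lines, 7741 probe sets passed in place of 8408 and MAFF did not (adjusted p = 0.0619). Each member has 1 probe set, so a comparison with other probe sets was not run. Dim signals such as those of FOSB and MAFF limit what could be seen, as their background is of unknown size.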
